A study of Arabidopsis thaliana with 12 samples.

Results

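Aux/IAA proteins are the repressors of the auxin response, and 10 of their genes were followed here in Arabidopsis thaliana seedlings. The genes are IAA1, IAA2, IAA3 (also called SHY2), IAA4, IAA5, IAA6, IAA7 (AXR2), IAA14 (SLR), IAA17 (AXR3) and IAA19 (MSG2). They were picked by gene identifier, all 10 were found among the 69383 features of each library, and all 10 passed the filter on low counts that left 22465 features to test. Whole seedlings aged 12 days were collected in 4 groups of 3 libraries each, named A, B and C. One genotype was RNAi-MARS, made to silence MARS, a long non-coding RNA, by RNA interference, and the other was the wild type Col-0. Each was taken 4 h after a spray of 10 µM abscisic acid (ABA) in water, and at 0 h without ABA. The series' design writes the silenced genotype as RNAI-MARS-1 and the sample labels as RNAi-MARS, so whether all libraries came from 1 line is not certain. What drives the construct is not given in the sources used here. There was no group sprayed without ABA at 4 h, so the hormone, the spray and the passing of 4 h cannot be told apart.

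Auxin binds a receptor of the TIR1/AFB family together with an Aux/IAA protein, which is then marked with ubiquitin and degraded. Until then the Aux/IAA protein holds an auxin response factor (ARF) bound on DNA in a silent state, by bringing in a TOPLESS corepressor. Many Aux/IAA genes are themselves switched on by auxin, so that their mRNA is often read as an output of the pathway and their protein closes a negative feedback loop. ABA is the hormone of drought and seed dormancy, and it slows seedling growth.

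The stretch that the receptor grips is the degron, whose core reads GWPPV in the protein. It is shown for all members because their degradation under auxin runs through it. The 5 codons of the core stand in capitals with 6 coding bases on each side. The sequences are from RefSeq, build TAIR10.1, read 5′ to 3′ on the coding strand, and each lies within 1 exon.

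IAA1, chr4:8361439-8361465, plus strand: atcgttGGATGGCCTCCAGTGagatct
IAA2, chr3:8181387-8181413, minus strand: atcgttGGTTGGCCACCAGTGagatct
IAA3, chr1:1129019-1129045, minus strand: attgttGGATGGCCACCAGTTagatct
IAA4, chr5:17550743-17550769, plus strand: attgttGGATGGCCACCAGTTagatct
IAA7, chr3:8195571-8195597, plus strand: gtggtgGGATGGCCACCTGTGaggaac
IAA14, chr4:8349478-8349504, minus strand: gtggtgGGTTGGCCACCGGTGaggaac
IAA17, chr1:1136941-1136967, plus strand: gttgtgGGATGGCCACCGGTGagatca
IAA5, chr1:5366275-5366301, minus strand: gttgtgGGTTGGCCACCGGTTtgttcg
IAA6, chr1:19673323-19673349, minus strand: gcggtgGGATGGCCACCTGTGtgttct
IAA19, chr3:5264310-5264336, plus strand: gtggtgGGGTGGCCACCGGTTtgttct

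All 10 members encode GWPPV. Of the 19 other Aux/IAA genes, 7 encode it, 5 have GWPPI, 1 has GWPPL and 6 have none of the 3. IAA3 and IAA4 have the same 27 bases here although they lie on different chromosomes. The longest annotated coding sequence of each gene was aligned. By share of aligned bases alone, the closest pairs were IAA1 and IAA2, identical at 85.6%, IAA3 and IAA4 at 85.2%, and IAA7 and IAA14 at 82.5%. Their longest shared runs were 29, 42 and 41 bases. IAA6 and IAA19 were identical at 77.1%, with a longest run of 26. As a share of the longer sequence, the closest were IAA7 and IAA14 at 77.7%, followed by IAA6 and IAA19 at 71.4%. By that measure IAA1 and IAA2 were at 54.3% and IAA3 and IAA4 at 54.3%, since part of the longer sequence was not aligned. Reads in such shared runs could be split or lost, and how the authors counted reads that match several places is not given in the sources used here. The members' own counts were whole numbers in every library, except in 1 library each for IAA3 and IAA4, so few of their reads had been divided between features.

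In TAIR10.1, IAA1 (AT4G14560) lies at chr4:8360996-8362033 and IAA14 (AT4G14550) at chr4:8347822-8350263. IAA2 (AT3G23030) lies at chr3:8180646-8182095 and IAA7 (AT3G23050) at chr3:8194606-8197161. IAA3 (AT1G04240) lies at chr1:1128149-1129689 and IAA17 (AT1G04250) at chr1:1136078-1138663. Each of these 3 pairs points apart on opposite strands, with 1 annotated gene between the partners and a gap of 10.7, 12.5 and 6.39 kb. The remaining members have no other member nearby, with IAA4 (AT5G43700) at chr5:17550179-17551715, IAA5 (AT1G15580) at chr1:5365512-5366497, IAA6 (AT1G52830) at chr1:19672476-19673652 and IAA19 (AT3G15540) at chr3:5264001-5265695. IAA3 overlaps AT1G04230 by 640 bases and IAA5 overlaps the A-type cyclin gene CYCA2;3 by 48 bases, both on the opposite strand. The strand setting of the counting is not given in the sources used here, so the values of IAA3 and IAA5 are uncertain. AT1G04230 itself had 10.2, 11.7 and 11.3 CPM in RNAi-MARS at 4 h, 9.28, 10.2 and 9.89 CPM in RNAi-MARS at 0 h, 9.78, 10.7 and 10.8 CPM in Col-0 at 4 h, and 10.07, 10.9 and 10.9 CPM in Col-0 at 0 h.

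Total counts per library were 19020202 to 38787804. MARS, the target of the construct, had 2.30, 1.34 and 4.11 CPM (counts scaled to a common library size) in RNAi-MARS at 4 h and 21.3, 9.09 and 20.1 CPM in Col-0 at 4 h. At 0 h it had 0.196, 0.156 and 0.167 CPM in RNAi-MARS and 6.63, 2.60 and 0.344 CPM in Col-0. Every RNAi-MARS library was thus below every Col-0 library of the same time, although edgeR did not call the difference at 4 h or at 0 h (adjusted p = 0.477 and 0.996), and the range within Col-0 at 0 h was wide. All 7 ABA marker genes rose in both genotypes, among them the dehydration gene RD29A, by 5.60 ± 0.28 in RNAi-MARS and 5.27 ± 0.28 in Col-0 (log2 fold change ± SE). Some of these markers were uneven between libraries at 0 h. RD29B had 23.3, 14.2 and 1.41 CPM in Col-0 and 3.25, 0.882 and 0.529 CPM in RNAi-MARS for A, B and C. RAB18 ran from 18.7 to 98.5 CPM in Col-0 and from 9.54 to 29.6 CPM in RNAi-MARS. Whether the libraries of one group stem from separate cultures is not in the labels, so each p-value rests on the spread between libraries, some or all of which may be technical. In whole seedlings, fewer cells of a type and less RNA per cell cannot be told apart.

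Levels of the 10 genes spanned a wide range. To compare genes, CPM was divided by the length of the merged exons in kilobases. In Col-0 at 0 h the order was IAA4 at 78.6 ± 8.15, IAA7 at 74.2 ± 4.41, IAA2 at 64.3 ± 8.64, IAA3 at 54.2 ± 6.13, IAA17 at 48.7 ± 4.18, IAA1 at 19.6 ± 1.29, IAA14 at 14.6 ± 3.74, IAA19 at 7.88 ± 1.99, IAA6 at 1.95 ± 0.63 and IAA5 at 0.837 ± 0.23 CPM per kb (SD, n = 3). From IAA4 down to IAA17 each gene's range of libraries overlapped that of the next in order, and from IAA17 down none overlapped the next. Abundance thus fell into an upper set of IAA2, IAA3, IAA4, IAA7 and IAA17, and a lower set in which IAA5 and IAA6 had very few reads.

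The order in RNAi-MARS at 0 h was nearly the same, with IAA7 at 84.1 ± 17.4, IAA4 at 82.1 ± 10.3 and IAA2 at 81.0 ± 12.7 CPM per kb and overlapping. At 4 h in RNAi-MARS IAA2 stood first at 61.5 ± 19.3, ahead of IAA7 at 55.2 ± 17.8 and IAA4 at 46.5 ± 11.1 CPM per kb, and these neighbours overlapped. At 4 h in Col-0 IAA2 was also first at 53.7 ± 2.88, ahead of IAA7 at 47.8 ± 3.70 and IAA4 at 40.6 ± 2.14 CPM per kb, with no overlap between them. IAA5 was last in all 4 groups, with 9 to 25 reads per library, and at 4 h its range overlapped that of IAA6 in both genotypes.

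**Figure D1:**
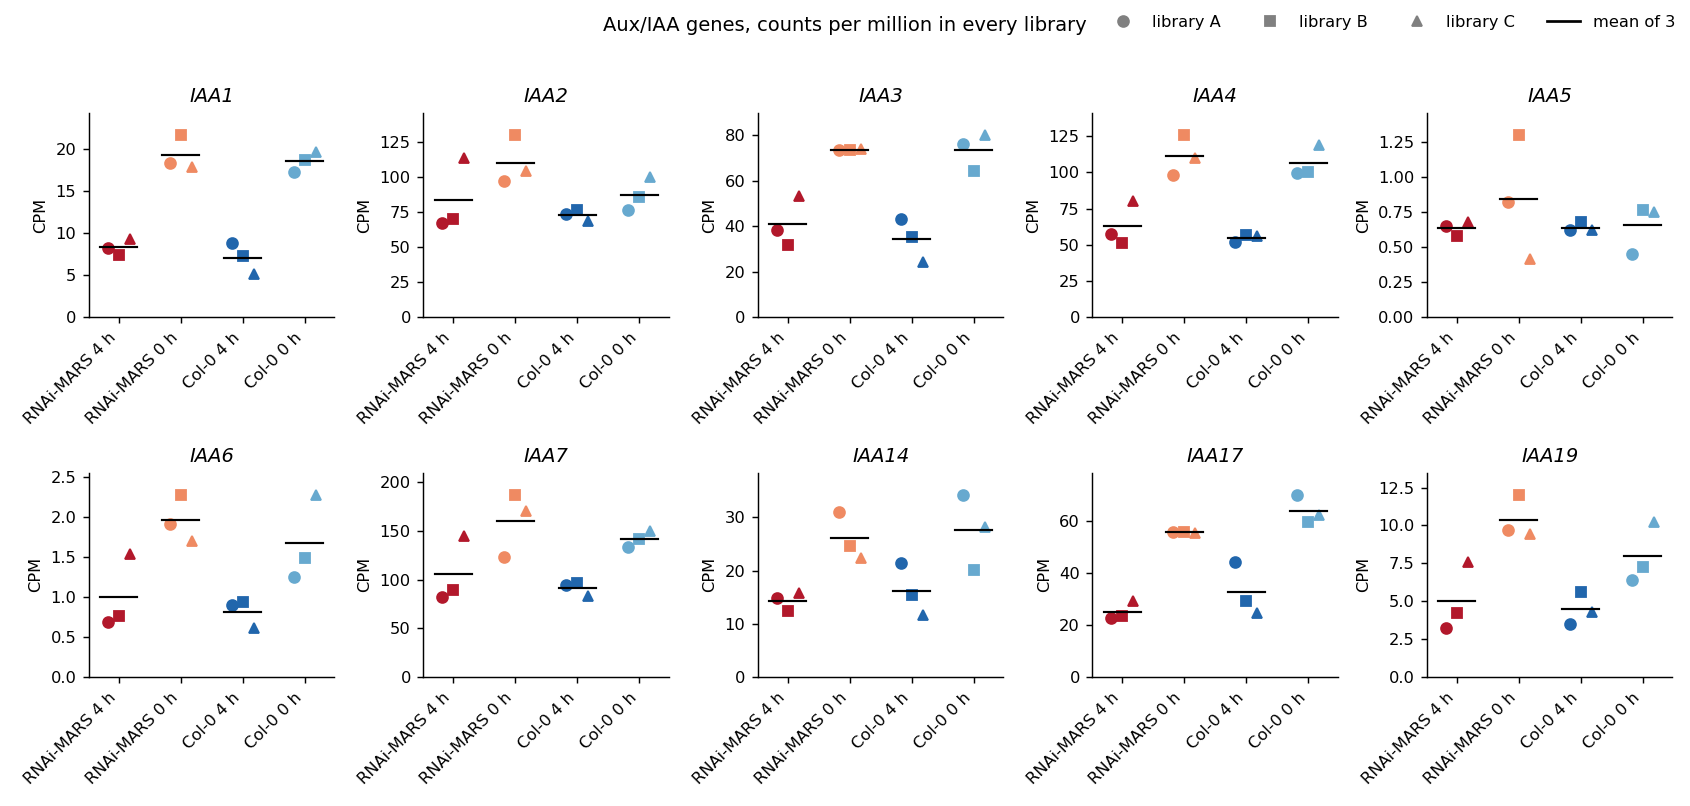
Level of each Aux/IAA gene in each library, in CPM on a linear axis from 0 that differs between genes, for RNAi-MARS at 4 h and 0 h and Col-0 at 4 h and 0 h; points are libraries and bars are the group means. The 4 h libraries lie below the 0 h libraries for most genes, with IAA2 and IAA5 the least separated.

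After ABA, 8 of the 10 genes fell in RNAi-MARS and the same 8 fell in Col-0, and none rose. The 8 called genes stood at 43.0% to 65.6% of their 0 h level in RNAi-MARS and at 38.5% to 64.4% in Col-0. IAA2 and IAA5 did not pass the test in either genotype. Calls are those of edgeR's quasi-likelihood test with a Benjamini-Hochberg adjusted p under 0.05 over all features, and by that rule 21.0% of all tested features were lower in RNAi-MARS and 19.3% in Col-0. The median log2 fold change of the 10 members was -0.86 in RNAi-MARS and -0.90 in Col-0, beside -0.02 and -0.00 over all features tested. The 4 h and 0 h libraries did not overlap, with 4 h lower, for 7 members in RNAi-MARS and 7 in Col-0, beside 26.4% and 26.6% of all features. The members were chosen with earlier results of these data known, so these shares describe the list and do not test it.

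IAA1, IAA2 and IAA4 are early auxin-induced genes; IAA1 is also known from the auxin-resistant mutant axr5, and the IAA2 promoter is widely used as an auxin reporter. IAA1 had 8.18, 7.39 and 9.32 CPM in RNAi-MARS at 4 h and 18.3, 21.6 and 17.9 CPM at 0 h. In Col-0 it had 8.81, 7.32 and 5.18 CPM at 4 h and 17.2, 18.7 and 19.6 CPM at 0 h. Every library at 4 h was far below every library at 0 h in both genotypes. Its log2 fold change was -1.22 ± 0.17 (SE, n = 3) in RNAi-MARS and -1.38 ± 0.17 in Col-0 (edgeR adjusted p = 0.000160 and 8.66e-05). Of all members IAA1 showed the most negative fold change in both genotypes.

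IAA4 had 57.8, 51.2 and 80.0 CPM in RNAi-MARS at 4 h and 97.9, 126 and 110.2 CPM at 0 h. In Col-0 the values were 51.7, 57.0 and 56.4 CPM at 4 h and 99.8, 100.5 and 119 CPM at 0 h. Neither genotype showed an overlap between times, and library C of RNAi-MARS at 4 h came nearest to the 0 h libraries. On the log2 scale the fold change was -0.82 ± 0.15 in RNAi-MARS and -0.95 ± 0.16 in Col-0 (edgeR adjusted p = 0.00136 and 0.000599).

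IAA2 had 66.9, 69.8 and 114 CPM in RNAi-MARS at 4 h and 96.7, 129.5 and 104 CPM at 0 h. In Col-0 it had 73.3, 76.6 and 68.8 CPM at 4 h and 76.6, 85.4 and 99.9 CPM at 0 h. The times overlapped in both genotypes, in RNAi-MARS through library C at 4 h. Its log2 fold change was -0.40 ± 0.19 with a 95% interval of -0.82 to 0.02 in RNAi-MARS, and -0.26 ± 0.19 with an interval of -0.68 to 0.16 in Col-0 (edgeR adjusted p = 0.114 and 0.307). Without library C of RNAi-MARS at 4 h it was called in RNAi-MARS, at a log2 fold change of -0.69 and an adjusted p of 0.00354, within a range of 0.00354 to 0.344 over the 18 alternatives.

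IAA3, IAA7, IAA14 and IAA17 are known from dominant mutants with a stabilised protein, and all 4 fell in both genotypes. IAA3, the short hypocotyl gene SHY2 that limits the root meristem, had 38.2, 31.7 and 53.3 CPM in RNAi-MARS at 4 h and 73.6, 73.5 and 73.8 CPM at 0 h. In Col-0 its values were 43.3, 35.5 and 24.3 CPM at 4 h and 76.1, 64.1 and 80.1 CPM at 0 h. The times did not overlap, and the 3 RNAi-MARS libraries at 0 h were almost equal. The fold change on the log2 scale was -0.85 ± 0.21 in RNAi-MARS and -1.09 ± 0.21 in Col-0 (edgeR adjusted p = 0.00788 and 0.00208), while the overlapping AT1G04230 was called in neither (0.18 ± 0.09 and -0.03 ± 0.09).

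IAA17, or AXR3, whose dominant mutant has an agravitropic root without hairs, had 22.8, 23.6 and 29.3 CPM in RNAi-MARS at 4 h and 56.0, 55.7 and 55.4 CPM at 0 h. Col-0 gave 44.3, 29.2 and 24.8 CPM at 4 h and 70.2, 59.7 and 62.3 CPM at 0 h. Again there was no overlap between times, and library A of Col-0 was the highest of its group at both times. Between times the log2 fold change was -1.15 ± 0.18 in RNAi-MARS and -0.96 ± 0.18 in Col-0 (edgeR adjusted p = 0.000452 and 0.00147).

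IAA14, or SOLITARY ROOT, holds back the founding of lateral roots. It had 14.9, 12.4 and 15.7 CPM in RNAi-MARS at 4 h and 31.1, 24.7 and 22.3 CPM at 0 h. In Col-0 it had 21.5, 15.4 and 11.6 CPM at 4 h and 34.2, 20.2 and 28.2 CPM at 0 h. RNAi-MARS showed no overlap, whereas in Col-0 library A at 4 h lay above library B at 0 h. Its log2 fold change was -0.87 ± 0.24 in RNAi-MARS and -0.76 ± 0.24 in Col-0 (edgeR adjusted p = 0.0133 and 0.0260). The RNAi-MARS call was lost without library B at 4 h (adjusted p = 0.0616, range over alternatives 0.00222 to 0.0616). The Col-0 call was lost without library A or C at 0 h (0.0984 and 0.0684) or library B or C at 4 h (0.0746 and 0.0850), within a range of 0.00635 to 0.0984.

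IAA7, or AXR2, whose dominant mutant is an auxin-resistant dwarf, had 82.6, 89.2 and 144 CPM in RNAi-MARS at 4 h and 123, 187 and 171 CPM at 0 h. Col-0 gave 94.3, 96.1 and 83.1 CPM at 4 h and 133, 141 and 150.0 CPM at 0 h. Library C at 4 h overlapped library A at 0 h in RNAi-MARS, and Col-0 had no overlap. The log2 fold change was -0.61 ± 0.20 in RNAi-MARS and -0.63 ± 0.20 in Col-0 (edgeR adjusted p = 0.0315 and 0.0280). In RNAi-MARS the call was lost without library B or C at 0 h (adjusted p = 0.117 and 0.0930) or library A or B at 4 h (0.108 and 0.119), within a range of 0.00143 to 0.119 over alternatives. In Col-0 it was lost without library B or C at 0 h (0.0622 and 0.0813) or A, B or C at 4 h (0.0610, 0.0550 and 0.0877), within a range of 0.00183 to 0.0877.

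IAA5, IAA6 and IAA19 are scarce members that are known to be needed together for drought tolerance, and IAA19 (MSG2) also acts in the bending of the hypocotyl. IAA19 had 3.23, 4.24 and 7.58 CPM in RNAi-MARS at 4 h and 9.71, 12.0 and 9.44 CPM at 0 h. The values in Col-0 were 3.49, 5.61 and 4.29 CPM at 4 h and 6.38, 7.28 and 10.2 CPM at 0 h. No 4 h library reached a 0 h library of its genotype. The log2 fold change was -1.06 ± 0.30 in RNAi-MARS and -0.85 ± 0.30 in Col-0 (edgeR adjusted p = 0.0137 and 0.0429). In RNAi-MARS the call was lost without library B at 0 h (adjusted p = 0.0501) or library B at 4 h (0.0565), within a range of 0.00135 to 0.0565. The Col-0 call was lost without library B or C at 0 h (0.0656 and 0.166), library A or C at 4 h (0.144 and 0.100), or RNAi-MARS library A, B or C at 0 h (0.0556, 0.0534 and 0.0580), and its range over alternatives was 0.0122 to 0.166.

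IAA6 had 0.688, 0.760 and 1.55 CPM in RNAi-MARS at 4 h and 1.92, 2.28 and 1.70 CPM at 0 h. In Col-0 it had 0.899, 0.935 and 0.620 CPM at 4 h and 1.25, 1.49 and 2.28 CPM at 0 h. Times did not overlap, at 14 to 73 reads per library. The fold change on the log2 scale was -1.003 ± 0.34 in RNAi-MARS and -1.04 ± 0.35 in Col-0 (edgeR adjusted p = 0.0344 and 0.0351). In RNAi-MARS the call was lost without any one of libraries A, B and C at 0 h (adjusted p = 0.0633, 0.103 and 0.0532) or A and B at 4 h (0.114 and 0.125), within a range of 0.00581 to 0.125. In Col-0 it was lost without library B or C at 0 h (0.0526 and 0.155) or A, B or C at 4 h (0.0675, 0.0589 and 0.115), and with a replicate block (0.0535), within a range of 0.0152 to 0.155.

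IAA5 had 0.653, 0.576 and 0.676 CPM in RNAi-MARS at 4 h and 0.822, 1.296 and 0.418 CPM at 0 h. Col-0 gave 0.622, 0.675 and 0.620 CPM at 4 h and 0.449, 0.762 and 0.751 CPM at 0 h. The times overlapped in both genotypes. The log2 fold change was -0.38 ± 0.38 with a 95% interval of -1.21 to 0.46 in RNAi-MARS, and -0.06 ± 0.39 with an interval of -0.91 to 0.79 in Col-0 (edgeR adjusted p = 0.454 and 0.924). A change as large as that of IAA19 in Col-0 lies inside both intervals, so these data do not exclude such a change. CYCA2;3, which overlaps IAA5, took more reads, at 13.7 to 21.2 CPM in RNAi-MARS at 4 h and 23.0 to 25.1 CPM at 0 h, and 16.2 to 21.2 CPM in Col-0 at 4 h and 19.3 to 24.0 CPM at 0 h. It fell in RNAi-MARS, with a log2 fold change of -0.52 ± 0.16, and was not called in Col-0, at -0.20 ± 0.16 (edgeR adjusted p = 0.0190 and 0.330).

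**Figure D2:**
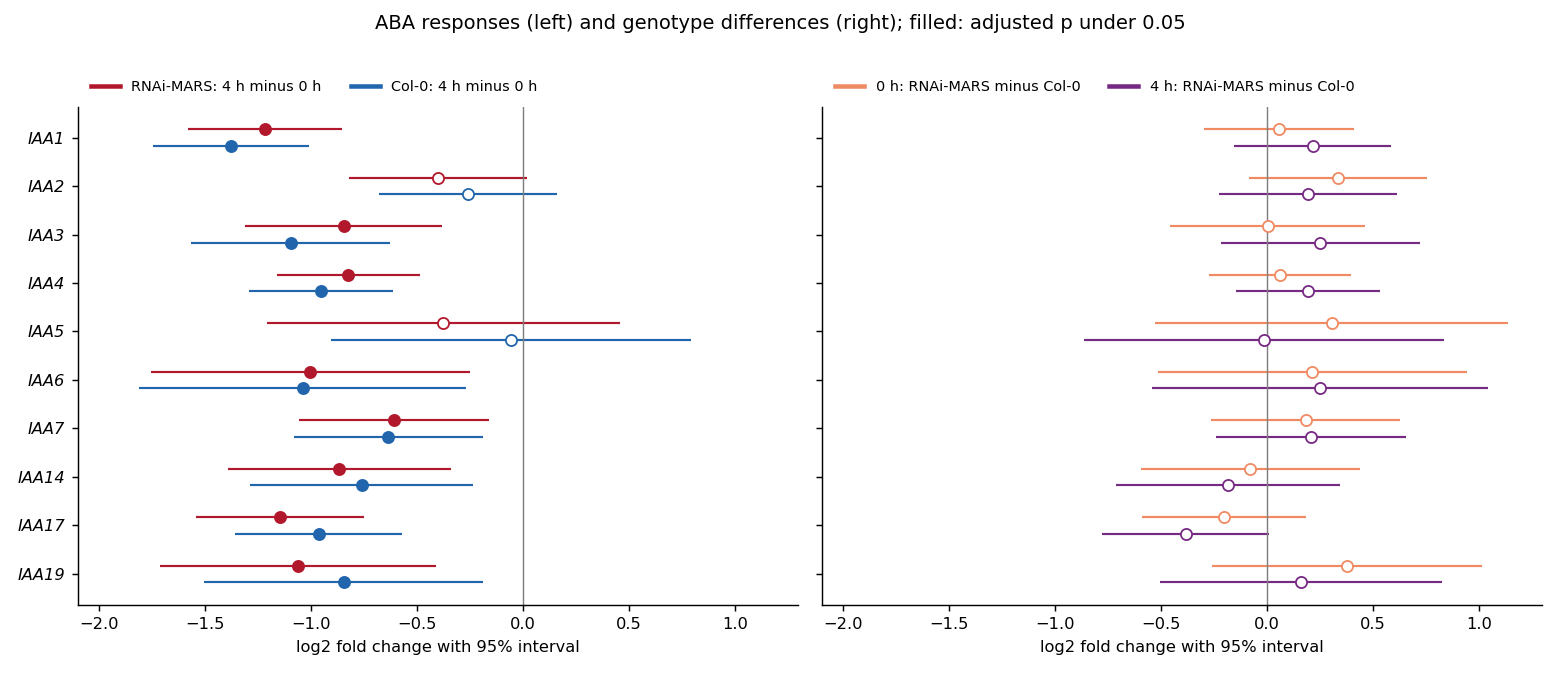
Log2 fold change of each Aux/IAA gene with its 95% interval from edgeR, for 4 h over 0 h in each genotype on the left and for RNAi-MARS over Col-0 at each time on the right; filled points have an adjusted p under 0.05. On the left 8 genes are filled in both genotypes, all between -0.61 and -1.38, and on the right every interval includes 0.

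The genotypes did not differ detectably in any of the 10 genes at either time. At 4 h edgeR called 0 of 10 members between RNAi-MARS and Col-0, beside 0.0890% of all features, and at 0 h also 0 of 10, beside 0.0890%. Members with an unadjusted p under 0.05 numbered 0 at 4 h and 0 at 0 h, beside 8.82% and 4.33% of all features. DESeq2 and limma-voom also called 0 members at each time. The widest 95% intervals of the log2 difference were those of IAA5, -0.86 to 0.83 at 4 h and -0.53 to 1.14 at 0 h, and a 2-fold difference lies inside the interval for IAA5 and IAA19 at 0 h and for IAA6 at 4 h.

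IAA17 came closest to a difference between genotypes. At 4 h it averaged 25.2 ± 3.58 CPM in RNAi-MARS and 32.8 ± 10.2 CPM in Col-0 (SD, n = 3), a log2 difference of -0.38 ± 0.18 with an interval of -0.78 to 0.01 (edgeR adjusted p = 0.571). At 0 h it averaged 55.7 ± 0.29 CPM in RNAi-MARS and 64.1 ± 5.50 CPM in Col-0, a log2 difference of -0.20 ± 0.18 with an interval of -0.59 to 0.19 (adjusted p = 0.996). All 3 RNAi-MARS libraries lay below all 3 Col-0 libraries at 0 h, and this was the only member without overlap, beside 11.3% of all features. At 4 h every member overlapped, beside 11.7% of all features without overlap. The largest positive difference at 0 h was that of IAA19, 0.38 ± 0.29 with an interval of -0.26 to 1.02, followed by IAA2 at 0.33 ± 0.19 with an interval of -0.09 to 0.75.

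Nor did the response to ABA differ detectably between genotypes. The difference between the responses, RNAi-MARS minus Col-0 on the log2 scale, ran from -0.32 ± 0.54 for IAA5 to 0.25 ± 0.30 for IAA3, whose 95% interval was -0.41 to 0.90. edgeR called 0 of 10 members and 0% of all features, and 0 members against 4.79% of all features had an unadjusted p under 0.05. For the best-measured genes the intervals were narrower, -0.35 to 0.61 for IAA4, -0.35 to 0.67 for IAA1 and -0.73 to 0.37 for IAA17.

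Within a group, the members tended to be high or low together in the same library. In RNAi-MARS at 4 h, library C lay above the group's mean log2 level for 10 of 10 genes, with a median deviation of 0.39. Library B of that group lay below it for all 10, with a median of -0.20. Over all features tested, the median absolute deviation was 0.13 in this library C and 0.14 in this library B. In Col-0 at 0 h 3 of 10 genes lay above the group mean in library A, 2 in B and 9 in C. Whether this goes with the uneven ABA markers of that group was not tested. Summed over the 10 genes, RNAi-MARS at 4 h had 296, 291 and 455 CPM for A, B and C, against 509, 634 and 566 CPM in RNAi-MARS at 0 h. Col-0 had 342, 324 and 280 CPM at 4 h and 515, 499 and 573 CPM at 0 h. Library C of RNAi-MARS at 4 h was thus the highest of the 6 libraries at 4 h, but below all 6 libraries at 0 h.

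**Figure D3:**
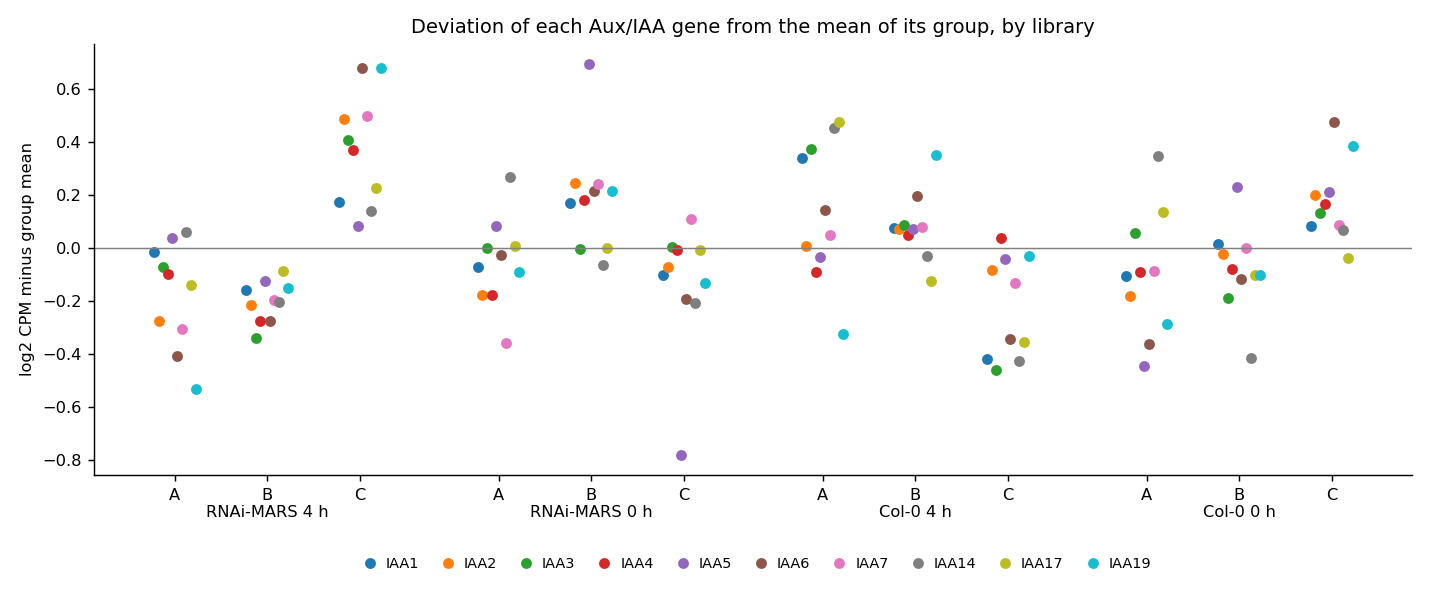
Deviation of each gene from the mean log2 CPM of its group, by library, with 1 colour per gene. In RNAi-MARS at 4 h all 10 genes are above 0 in library C and below 0 in library B, and in Col-0 at 4 h 9 of 10 are below 0 in library C.

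As a description over 12 libraries that share only 4 group means, the deviations of IAA2 correlated at 0.92 with IAA4, 0.92 with IAA6, 0.92 with IAA7 and 0.89 with IAA19. IAA3 correlated at 0.84 with IAA1, 0.84 with IAA17, 0.76 with IAA14 and 0.71 with IAA6. The lowest value was -0.09, for IAA14 and IAA19. Of the 45 pairs of genes 41 had a positive correlation of deviations, with a median of 0.48. Whether other sets of genes correlate as much was not tested. The neighbouring pairs gave 0.84 for IAA3 and IAA17, 0.92 for IAA2 and IAA7 and 0.57 for IAA1 and IAA14.

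Markers of tissues were read beside these values. All 13 root, 8 shoot and 6 dividing-cell markers were detected and none was at 0 in any library. Their summed root level was 1962 to 2742 CPM in RNAi-MARS at 4 h and 2232 to 2477 CPM at 0 h, and 2115 to 2744 CPM in Col-0 at 4 h and 2014 to 2813 CPM at 0 h. The summed shoot level was 23268 to 34735 CPM in RNAi-MARS at 4 h and 37103 to 41819 CPM at 0 h, and 32988 to 33648 CPM in Col-0 at 4 h and 33603 to 44011 CPM at 0 h. Library B of RNAi-MARS at 4 h, in which all members were below their group mean, had the lowest shoot sum of the 12 libraries. Dividing-cell markers summed to 61.8 to 78.3 CPM in RNAi-MARS at 4 h and 68.0 to 75.5 CPM at 0 h, and to 71.2 to 86.0 CPM in Col-0 at 4 h and 50.8 to 61.6 CPM at 0 h. Of these 6 markers 0 were called in RNAi-MARS and 4 rose in Col-0, while 1 root marker rose and 1 fell in RNAi-MARS and 1 rose and 2 fell in Col-0. Over all features 42.6% were called in either direction in RNAi-MARS and 40.0% in Col-0. For the 6 dividing-cell markers the difference between the responses was called in 0. At 0 h all 6 had higher estimates in RNAi-MARS than in Col-0, with 0 called. Of the 8 shoot markers 1 fell in each genotype, the Rubisco small subunit gene RBCS1A, with a log2 fold change of -0.84 ± 0.21 in RNAi-MARS and -0.70 ± 0.21 in Col-0 (edgeR adjusted p = 0.00845 and 0.0224). The part of tissue make-up in the members' changes was not tested.

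The time of day moved with the comparison of 4 h and 0 h as well. LHY, a clock gene that peaks at dawn, had 16.3, 23.5 and 17.97 CPM in RNAi-MARS at 4 h and 367, 404 and 430.4 CPM at 0 h, and 10.96, 10.3 and 13.6 CPM in Col-0 at 4 h and 433, 373 and 432 CPM at 0 h. Of 10 clock genes, 7 rose and 2 fell in RNAi-MARS and 6 rose and 2 fell in Col-0. The share of all features called in either direction was 42.6% in RNAi-MARS and 40.0% in Col-0. Of 5 PIF genes, light-regulated factors that drive auxin synthesis, PIF1 and PIF5 fell and PIF3 rose in both genotypes, while PIF4 and PIF7 were not called. ABA, spray and time of day cannot be told apart in the members' decline.

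The 250 bases before the annotated start were searched for auxin response elements, TGTCTC and TGTCGG, which ARF proteins can bind, and for the G-box CACGTG and its inner ABRE core ACGTG, which bZIP and PIF factors can bind. Both strands were read, and every CACGTG also counts as an ACGTG. The element TGTCTC was found in 4 of 10 members (IAA1, IAA5, IAA6 and IAA19), in 5 of 19 other Aux/IAA genes and in 10.9% of 27443 protein-coding genes. TGTCGG was found in 2 of 10 members (IAA1 and IAA5), 4 of 19 others and 4.16% of all. The G-box was found in 2 of 10 members (IAA7 and IAA19), 2 of 19 others and 6.49% of all, and ACGTG in 2 of 10, 6 of 19 and 22.9%. A match is a run of letters and not a shown binding site.

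IAA6 and IAA19 are printed because they shared the longest run of any pair of members in this window, 23 bases, which begins 181 bases before the start of IAA6 and 186 bases before that of IAA19 and holds a TGTCTC. Capitals mark TGTCTC and CACGTG. The bases are from RefSeq, TAIR10.1, 5′ to 3′ towards the gene.

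IAA6, chr1:19673653-19673902, minus strand: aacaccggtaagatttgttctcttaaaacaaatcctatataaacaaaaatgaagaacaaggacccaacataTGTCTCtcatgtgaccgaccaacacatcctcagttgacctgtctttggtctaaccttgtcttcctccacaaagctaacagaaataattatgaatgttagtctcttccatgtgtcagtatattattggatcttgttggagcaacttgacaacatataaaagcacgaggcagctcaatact
IAA19, chr3:5263751-5264000, plus strand: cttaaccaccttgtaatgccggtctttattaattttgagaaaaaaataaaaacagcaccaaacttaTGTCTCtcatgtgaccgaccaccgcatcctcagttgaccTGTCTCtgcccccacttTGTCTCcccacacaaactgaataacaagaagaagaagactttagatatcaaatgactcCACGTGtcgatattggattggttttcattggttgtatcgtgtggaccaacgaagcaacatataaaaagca

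IAA19 held TGTCTC at 184, 145 and 128 bases before its start and a G-box at 70, and IAA6 held a single TGTCTC at 179. Their levels correlated at 0.95 over the 12 libraries, where the median of all 45 pairs was 0.82 and the highest value was 0.97, for IAA1 and IAA3, whose longest shared run was 7 bases.

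Of 15 other Aux/IAA genes tested of 19 listed, 2 rose and 4 fell in RNAi-MARS, and 2 rose and 5 fell in Col-0, beside 42.6% of all features called in either direction in RNAi-MARS and 40.0% in Col-0 (21.6% and 20.7% higher). Their median log2 fold change was -0.11 in RNAi-MARS and -0.24 in Col-0. IAA12 (BODENLOS), which acts in the embryo root, fell by 0.92 on the log2 scale in RNAi-MARS and by 1.13 in Col-0 (SE 0.12 in both; edgeR adjusted p = 0.000101 and 2.92e-05). IAA9 rose in both genotypes, by 0.36 ± 0.08 and 0.41 ± 0.08, and is uncertain because it overlaps another gene. IAA28, free of overlap with other genes, rose in RNAi-MARS by 0.60 ± 0.18 (edgeR adjusted p = 0.0172). In Col-0 IAA28 averaged 23.8 ± 2.56 CPM at 4 h and 22.5 ± 5.48 CPM at 0 h (SD, n = 3). Its Col-0 libraries at 0 h ran from 16.2 to 25.9 CPM. As for every feature, the difference between its responses in the 2 genotypes was not called. IAA31 had a fold change of -2.67 ± 0.55 in RNAi-MARS and -0.93 ± 0.51 in Col-0. It passed only in RNAi-MARS (edgeR adjusted p = 0.00231 and 0.165), but the difference between the responses was not called (-1.74 ± 0.76, adjusted p = 0.946). IAA31 had very few reads, 1 to 5 per library in RNAi-MARS at 4 h and 11 to 20 at 0 h. In Col-0 it had 2 to 8 reads at 4 h and 9 to 15 at 0 h.

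Among 6 auxin receptors, AFB1, AFB2 and AFB3 fell and AFB4 rose in both genotypes, of which AFB1, AFB3 and AFB4 overlap other genes and are uncertain. AFB2, free of overlap with other genes, changed by -0.69 ± 0.08 in RNAi-MARS and -0.70 ± 0.08 in Col-0 (edgeR adjusted p = 4.29e-05 and 4.79e-05). TIR1 itself was not called (-0.15 ± 0.08 and -0.11 ± 0.08). Of 15 ARF genes, 2 rose and 6 fell in RNAi-MARS and 2 rose and 7 fell in Col-0. ARF6, an activator of hypocotyl growth, rose by 0.93 ± 0.11 in RNAi-MARS and 0.91 ± 0.11 in Col-0, and the repressor ARF10 changed by -0.71 ± 0.09 and -0.90 ± 0.09. Of 5 TOPLESS corepressors, TPL, which overlaps another gene, and TPR2 fell and TPR1 rose in both genotypes.

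Of 7 GH3 genes tested, which encode enzymes that mostly tie auxin to amino acids, 1 rose and 1 fell in RNAi-MARS and 2 rose and 1 fell in Col-0. GH3.2, an auxin-induced gene, moved the opposite way to the members, by 1.295 ± 0.43 in RNAi-MARS and 1.70 ± 0.43 in Col-0 (edgeR adjusted p = 0.0313 and 0.00948). Of 13 SAUR genes, short auxin-induced growth genes, 0 rose and 2 fell in RNAi-MARS and 0 rose and 5 fell in Col-0. SAUR76 changed by -0.90 ± 0.32 and -0.99 ± 0.34, and the near-identical copies SAUR19 to SAUR24 are uncertain. SAUR76 had few reads, 9 to 22 per library in RNAi-MARS at 4 h and 18 to 28 at 0 h. In Col-0 it had 6 to 14 reads at 4 h and 10 to 35 at 0 h.

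Of 9 auxin synthesis genes tested, 3 fell in RNAi-MARS and 2 in Col-0. The flavin monooxygenase gene YUC5 changed by -2.999 ± 0.47 in RNAi-MARS and -2.09 ± 0.46 in Col-0 (edgeR adjusted p = 0.000422 and 0.00400). YUC5 had few reads, 5 to 10 per library in RNAi-MARS at 4 h and 32 to 72 at 0 h. In Col-0 it had 3 to 14 reads at 4 h and 19 to 56 at 0 h. Of 9 transport genes, 1 rose and 5 fell in each genotype. The efflux carrier PIN3 changed by -1.06 ± 0.14 in RNAi-MARS and -1.05 ± 0.14 in Col-0, and its relative PIN7 by 0.52 ± 0.17 and 0.81 ± 0.17.

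**Figure D4:**
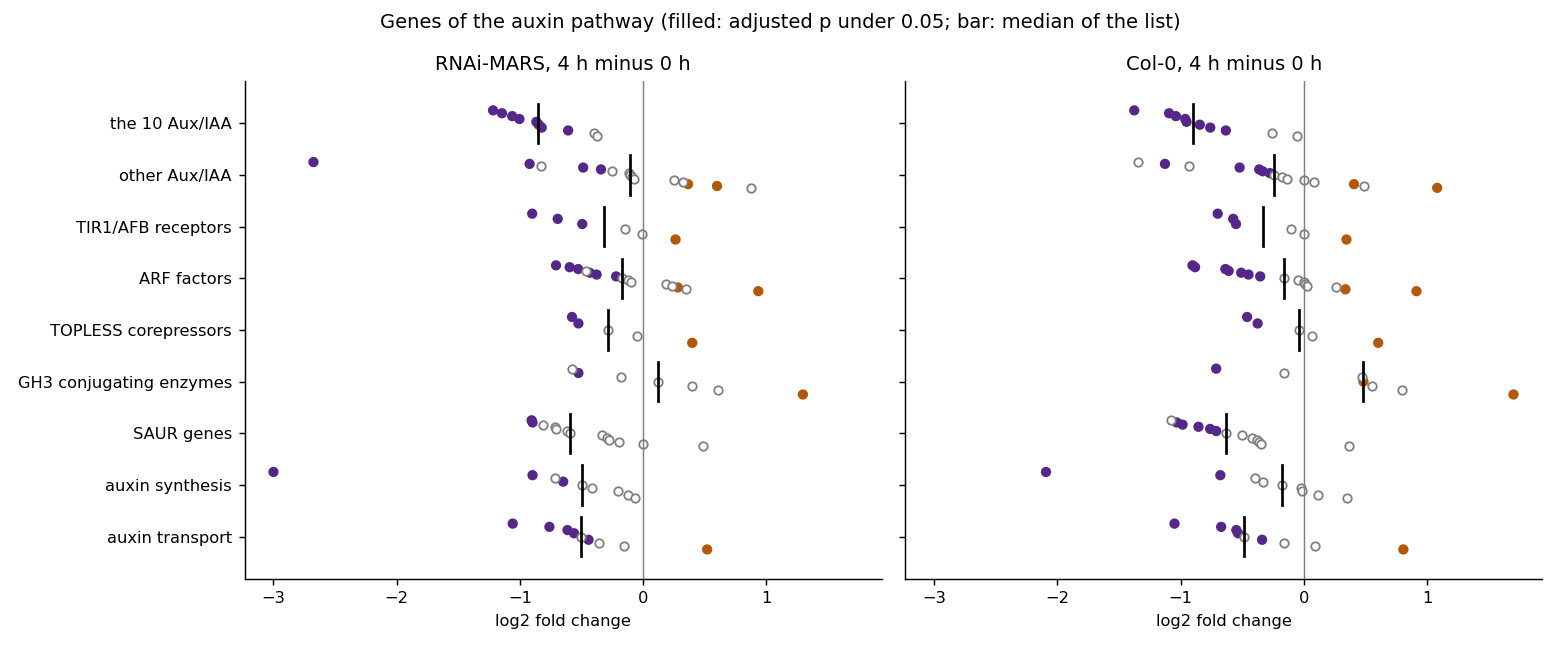
Log2 fold change at 4 h over 0 h of each tested gene of the auxin lists, in RNAi-MARS and in Col-0, with the 10 members first; points are genes, filled where the adjusted p is under 0.05, and bars are list medians. All 10 members lie below 0 in both genotypes; the 9 auxin synthesis genes also all lie below 0 in RNAi-MARS, but not in Col-0, and the remaining lists reach both sides of 0 in both genotypes.

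The gene whose log2 level ran most closely with each member over the 12 libraries is given with Pearson's r, as a description. For IAA1 it was AT1G29420 (SAUR61) at 0.989, for IAA17 the pectin methylesterase gene PMEPCRF at 0.988, for IAA4 AT5G27770 at 0.987, for IAA3 LNG2 (LONGIFOLIA2) at 0.979, for IAA6 AT1G18500 (IPMS1) at 0.979 and for IAA19 the non-coding RNA AT3G61198 at 0.978. The others were the beta-xylosidase gene BXL1 at 0.971 for IAA7, PAR1 at 0.966 for IAA2, RGA1 at 0.954 for IAA14 and GTE6 at 0.912 for IAA5. Since all genes share the split between 4 h and 0 h, many genes reach such values: 1369 had r over 0.9 with IAA4 and 1210 with IAA1, but 44 with IAA2 and 1 with IAA5.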

How the data were processed

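Polyadenylated RNA was sequenced from 12 whole-seedling libraries. The authors deposited 1 table per library of estimated counts per feature, not normalized; per the submitters' processing notes they used the build TAIR10, the aligner STAR 2.7.2a, Trimmomatic 0.36, and featureCounts from Subread 1.6.5. Their strand and multi-mapping settings are not stated there. Counts that were not whole made up 5.31% to 7.60% of features in a library. Counts were rounded and tested in R 4.3.3 with edgeR 4.0.16 (quasi-likelihood F test, TMM, filterByExpr at a minimum count of 10, robust) on all 12 libraries with 1 coefficient per group. P-values are 2-sided and adjusted by Benjamini-Hochberg over 22465 features. The SE is the log2 fold change over the square root of F, and 95% intervals use the test's degrees of freedom. Log2 CPM used a prior count of 2. The steps were also run on simulated data with 200 changed features per comparison. The ABA comparisons called far more, 9567 in RNAi-MARS and 8979 in Col-0, so that run does not gauge those calls. Alternatives were DESeq2 1.42.0, limma-voom 3.58.1, RLE scaling, no filter, only the groups compared, a replicate block and leaving out each library. Gene names, coordinates and sequences are from RefSeq TAIR10.1. The members and gene lists were chosen with earlier results of these data known. Genes named were all members, MARS, per auxin list and genotype at most the 3 strongest called rises and 3 strongest called falls, up to 2 genes of each list that describes the samples, and the tested gene with the highest Pearson's r to each member. TIR1, the PIF genes and the genes overlapping IAA3 and IAA5 were named after their values were seen.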

Additional observations from a re-analysis of the deposited data

How the results depend on the processing

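Over 18 alternatives, the count of members lower after ABA was 8 as reported and 4 to 9 when 1 library was left out in RNAi-MARS, and 8 as reported and 4 to 8 when 1 library was left out in Col-0. IAA1, IAA3, IAA4 and IAA17 passed in both genotypes under all alternatives, with highest adjusted p-values of 0.00111, 0.0355, 0.0110 and 0.00328 in RNAi-MARS and 0.00127, 0.0101, 0.00374 and 0.0130 in Col-0. In RNAi-MARS 5 members were called without library B at 0 h and 4 without library B at 4 h. In Col-0 5 were called without library B at 0 h, 4 without C at 0 h, 5 without A or without B at 4 h and 4 without C at 4 h. A fit of only the groups compared gave 6 in RNAi-MARS and 7 in Col-0, with IAA6 and IAA7 lost in RNAi-MARS (adjusted p = 0.0639 and 0.101) and IAA14 in Col-0 (0.0772), and no filter gave 7 in Col-0, with IAA19 lost (0.0527). Between genotypes and for the difference of responses 0 members were called under every alternative. Of all member values under the alternatives, 851 kept their side of the threshold, 38 lost a call, 1 gained one and 0 reversed a call. No scaling moved the median of all features by more than 0.1. With the replicate block 8 members were called in RNAi-MARS and 7 in Col-0. The labels do not say whether a letter marks a shared batch. Deviations of same-letter libraries correlated at -0.30 to 0.40 (median 0.04), and those of different-letter libraries at -0.40 to 0.33 (median -0.04). Of 12 libraries 6 were closest to their own letter. These overlapping ranges do not settle whether the letters pair the samples. Depth limits IAA5 and IAA6 most, and leaving out a library leaves 2 against 3.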
